A study of Mus musculus with 9 samples.

Results

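The called insertion sites of chromosome 10 are the subject here, in medulloblastomas of Lazy Piggy mice. They were selected on measured values: counts of both Sleeping Beauty ends (IR libraries) were summed per animal, positions within 10 bp were merged, and a site was called at 10 or more counts and at least 1% of the animal's highest site. Of 2309 called IR sites in both arms, 465 lay on chromosome 10 (20.1%), and 1844 lay elsewhere. Where several animals shared a called position, only the one with the largest share kept it. This left 465 of 487 calls on chromosome 10 and 2309 of 2664 on all chromosomes. The step thus removed a smaller part of the calls on chromosome 10 than of all calls. The sites nearest above the call limit stood at 1.005%, 1.006% and 1.013% of the animal's highest site. The nearest below stood at 0.996%, 0.995% and 0.993%.

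The study looked for drivers of tumour maintenance by letting transposon insertions arise in SHH medulloblastoma and mobilising them again. All tumours carried the Lazy Piggy transposon system, the animals of 1 arm were given tamoxifen (TAM+) and those of the other were not (TAM-), and the labels give neither age nor strain. The authors' sample sheet lists for each animal a donor chromosome, here called donor 10 or donor 7. The groups were TAM+ with donor 10 (53 animals), TAM- with donor 10 (37), TAM+ with donor 7 (19) and TAM- with donor 7 (10), each animal being 1 replicate. Libraries were spread over 9 sequencing lanes, and p-values come from tests that take these animals, not sites or lanes, as the unit.

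Sleeping Beauty (SB) is a cut-and-paste transposon that integrates at the dinucleotide TA, and piggyBac (PB) is another that integrates at the tetranucleotide TTAA. SB in particular tends to land again near the place it left, which is called local hopping. The Lazy Piggy element combines SB and PB parts. IR libraries read the SB ends, JX libraries the boundary of both parts, and PB libraries the PB ends.

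Genome sequence around each site was not read here because coordinates are in mm9. There were 6 called sites listed ahead of a gene and within 5 kb of a position listed inside it. At 1 of these, in a gene not shown, that distance was 0, since the site lay between positions listed inside the gene. The authors listed 11.2 kb for it. Promoters of 3 of the genes, chosen after their values were seen, are shown for the sequence nearest to such sites. They come from RefSeq on GRCm38.p6, cover 300 bases in the direction of the gene, and have every TA, the SB target dinucleotide, in capitals.
Ppp1r12a, chr10:108161848-108162147, plus strand: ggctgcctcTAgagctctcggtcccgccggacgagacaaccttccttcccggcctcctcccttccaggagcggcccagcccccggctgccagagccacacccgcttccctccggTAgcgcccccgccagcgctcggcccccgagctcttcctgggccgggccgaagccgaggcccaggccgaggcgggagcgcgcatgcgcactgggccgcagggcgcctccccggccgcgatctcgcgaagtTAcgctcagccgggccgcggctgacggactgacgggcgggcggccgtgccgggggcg
C2cd4c, chr10:79613976-79614275, minus strand: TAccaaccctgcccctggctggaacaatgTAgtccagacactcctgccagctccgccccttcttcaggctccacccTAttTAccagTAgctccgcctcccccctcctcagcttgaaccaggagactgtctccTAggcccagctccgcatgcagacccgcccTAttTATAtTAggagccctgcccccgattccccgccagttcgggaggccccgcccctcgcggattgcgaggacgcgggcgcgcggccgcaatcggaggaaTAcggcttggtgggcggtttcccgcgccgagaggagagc
Gas2l3, chr10:89443918-89444217, minus strand: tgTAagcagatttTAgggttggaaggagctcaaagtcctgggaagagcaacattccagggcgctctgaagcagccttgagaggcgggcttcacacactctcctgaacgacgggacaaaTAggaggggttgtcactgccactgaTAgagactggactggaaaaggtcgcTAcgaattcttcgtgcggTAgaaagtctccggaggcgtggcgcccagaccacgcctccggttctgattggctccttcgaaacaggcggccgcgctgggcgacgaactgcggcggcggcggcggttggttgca
The Ppp1r12a promoter held 3 TA, against 11 in the C2cd4c promoter and 6 in the Gas2l3 promoter. The median over 32851 RefSeq promoters of this length was 10, and 99.1% held at least 1. None of the 3 held TTAA, which 52.4% of all promoters did. TA and TTAA read the same on both strands, TA occurs inside TTAA, and the called sites themselves lie outside these windows. The C2cd4c site, at mm9 position 79077687, lay 1.28 kb from the nearest position listed inside the gene and held 25.4% of the IR counts of a TAM- tumour. The Gas2l3 site, at 88907723, lay 2.01 kb from the nearest position listed inside its gene and held 2.42% in another TAM- tumour. The authors' own distances to the gene were shorter, 0.917 kb for the C2cd4c site and 1.011 kb for the Gas2l3 site. The Ppp1r12a site nearest to the gene, at 107596767, lay 3.37 kb before the first position listed inside the gene and held 0.164% in a TAM- tumour.

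Depth was similar in both arms: IR counts per animal had a median of 3115243 in TAM+ (295999 to 6337624) and 3143569 in TAM- (1236372 to 5553180). Of the 465 chromosome 10 sites, 436 came from donor 10 animals and 29 from donor 7 animals. The donor label was set against where each animal's called sites lay. More IR sites on chromosome 10 than on chromosome 7 were found in 76 of 90 donor 10 animals, the opposite in 6, and equal numbers in 8. Of the 29 donor 7 animals, 23 had more on chromosome 7, 3 had more on chromosome 10 and 3 had equal numbers. The same reading of JX sites gave 73 donor 10 animals with more on chromosome 10 and 11 with more on chromosome 7, against 2 and 23 of the donor 7 animals. A few animals thus stood against their donor label. The clearest was a TAM+ animal listed under donor 7, which had 6 of its 11 called sites on chromosome 10 and 0 on chromosome 7. Donor 7 values of IR sites that moved without it are given both ways. The 2 animals with the most chromosome 10 sites, both TAM+ with donor 10, held 51 and 44 of them, and values that moved without these are given both ways.

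The first comparison asked how far the share of sites on chromosome 10 followed the donor. Chromosome 10 held 29.2% ± 18.4 of an animal's called IR sites in donor 10 tumours (SD, n = 90), against 5.02% ± 11.02 in donor 7 tumours (SD, n = 29). Among donor 10 animals the share had a median of 28.6% and ran between 0% and 100%. The animal at 100% had only 1 called IR site. Among donor 7 animals the median was 0% and the highest 54.5%. The groups overlapped, since 10 of the 90 donor 10 animals had no called chromosome 10 site. The difference of 24.1 percentage points had p = 1e-05 in a two-sided permutation test over animals, the smallest that 100000 resamples can give, and 0.00014 after adjustment over 14 permutation tests. It was 25.9 points without the animal that stood against its label. The donor 10 mean was the higher one in all 9 of 9 lanes.

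At least 1 called chromosome 10 site was present in 80 of 90 donor 10 animals (88.9%) and in 10 of 29 donor 7 animals (34.5%). The highest site of the whole animal was on chromosome 10 in 27 donor 10 animals (30%) and in 3 donor 7 animals (10.3%). Chromosome 10 sites together held 21.1% ± 17.6 of all IR counts in donor 10 animals (SD, n = 90) and 3.89% ± 9.06 in donor 7 animals (SD, n = 29). Without the donor 7 animal that stood against its label, 9 of 28 donor 7 animals had a site (32.1%), 2 had their highest site there and the share of counts was 2.63% ± 6.06 (SD, n = 28). Share of sites and share of counts thus ranked the donors alike. The 10 donor 10 animals without a chromosome 10 site, 7 TAM+ and 3 TAM-, had between 2 and 32 called sites (median 7). Of these animals, 6 had a called JX site and 5 a called PB site on chromosome 10, and 5 had called IR sites on chromosome 7, up to 8.

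**Figure D1:**
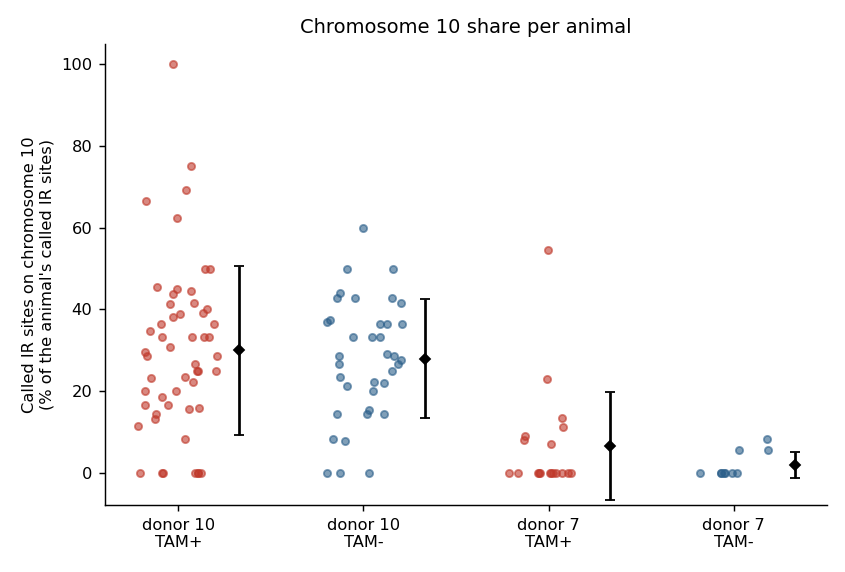
Share of each animal's called IR sites that lay on chromosome 10 (percent), 1 point per animal, for TAM+ and TAM- animals with donor 10 (left pair) and donor 7 (right pair). Diamonds and bars give the mean and SD; donor 10 animals averaged 29.2% and donor 7 animals 5.02%, with 1 donor 7 animal at 54.5%.

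Distances were counted to a centre taken from the JX libraries, the middle of the 1 Mb window with called JX sites in the most donor 10 animals. That window ran between 107000001 and 108000000 and held JX sites in 50 animals, against 21 in the next best window of the chromosome. Since positions set the centre, the fall with distance is a description. Per 1 Mb of covered chromosome, donor 10 animals had 100 called IR sites within 0.5 Mb of the centre, 19 at 0.5 to 1 Mb and 18.5 at 1 to 2 Mb. Densities went on down to 7 sites per Mb at 2 to 5 Mb, 4 at 5 to 10 Mb and 3.95 at 10 to 20 Mb. Farther out there were 1.78 per Mb at 20 to 50 Mb and 1.12 beyond 50 Mb, against 0.515 per Mb on all other chromosomes of the same animals. Chromosome 10 of donor 10 animals thus stayed above their other chromosomes even in its most distant class.

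The innermost class held 100 of the 436 donor 10 sites (22.9%) in 47 of 90 animals (52.2%), and the ring between 5 and 50 Mb held 40, 79 and 58 sites in its 3 classes. Within 5 Mb there were 198 sites (45.4%) in 67 animals, of which 100 lay on the lower side of the centre and 98 on the higher. The innermost class was split 50 and 50. Farther out the sides differed in number: between 5 and 20 Mb there were 15 and 32 sites below the centre and 25 and 47 above it. The class of 20 to 50 Mb covered 2.49 Mb above the centre and 30 Mb below it, and all 61 sites beyond 50 Mb lay below it. Without the 2 animals with the most sites, density was 81 per Mb within 0.5 Mb, 13 at 0.5 to 1 Mb and 0.881 beyond 50 Mb.

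Density also fell with distance in the libraries that the site call had not used. JX sites of these animals had set the centre, so their own peak there follows from that choice. JX sites of donor 10 animals numbered 144 within 0.5 Mb, 41 per Mb at 0.5 to 1 Mb, 8.6 per Mb at 5 to 10 Mb and 3.32 per Mb beyond 50 Mb. PB sites numbered 113 within 0.5 Mb, 36 per Mb at 0.5 to 1 Mb, 3.8 per Mb at 5 to 10 Mb and 1.38 per Mb beyond 50 Mb. All kinds of library come from the same tumour DNA and are no independent animals.

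**Figure D2:**
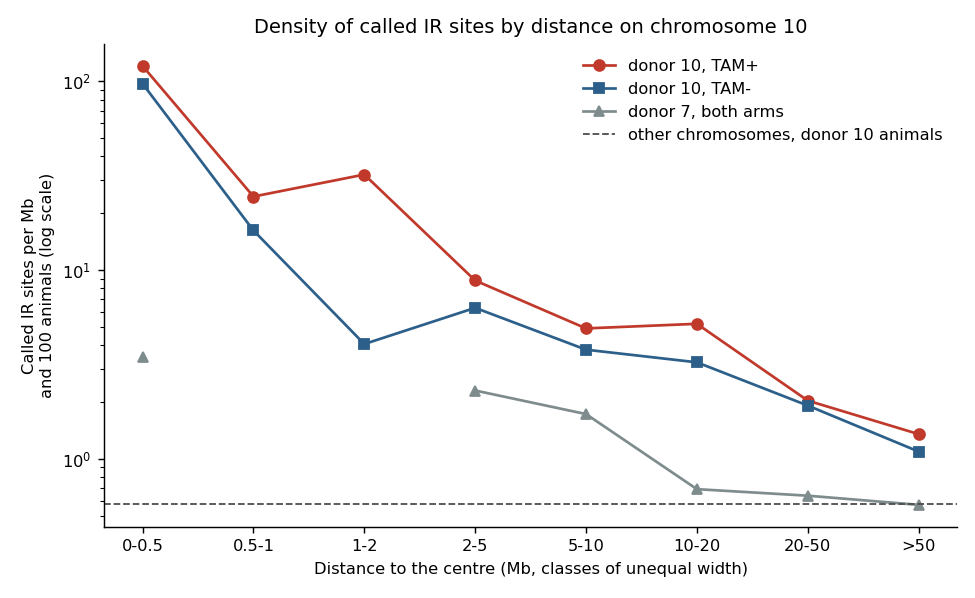
Called IR sites per Mb of chromosome 10 and 100 animals (log scale) by distance to the centre, for TAM+ and TAM- animals with donor 10 and for donor 7 animals; classes without a site have no point, and the dashed line is the density on other chromosomes of donor 10 animals. The innermost class stood at 121 in TAM+ and 97.3 in TAM-, and the outermost at 1.35 in TAM+ and 1.09 in TAM-.

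Donor 7 animals gave the comparison for this pattern in IR sites. The share of an animal's chromosome 10 sites within 5 Mb of the centre was 48.2% ± 33.3 in donor 10 animals (SD, n = 80 with a site) and 7.92% ± 21.01 in donor 7 animals (SD, n = 10). Since donor 10 animals set the centre, this difference of 40.2 points is a description. A permutation test of it was 1 of the 14 adjusted together, and no conclusion is drawn from that test. Without the donor 7 animal that stood against its label the donor 7 mean was 1.39% (n = 9). That animal held 4 of the 5 donor 7 sites within 5 Mb, and the only donor 7 site within 0.5 Mb, in intron 17 of Otogl at 107309023, was also its own, with 31.1% of its IR counts. The 29 donor 7 sites had a median distance of 20.2 Mb, against 7.59 Mb for the 436 donor 10 sites, and the 23 donor 7 sites of the other animals had a median of 24.6 Mb. The other libraries of donor 7 animals had a higher density near the centre than far from it, in few animals. Called JX sites numbered 5 within 0.5 Mb, in 3 of 29 animals, against 0.477 per Mb beyond 50 Mb. Called PB sites numbered 12 within 0.5 Mb, in 3 of 29 animals, against 0.661 per Mb beyond 50 Mb. All 8 called PB sites at 1 to 2 Mb were in 1 animal. These JX and PB counts include the animal that stood against its label and were not worked out without it.

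**Figure D3:**
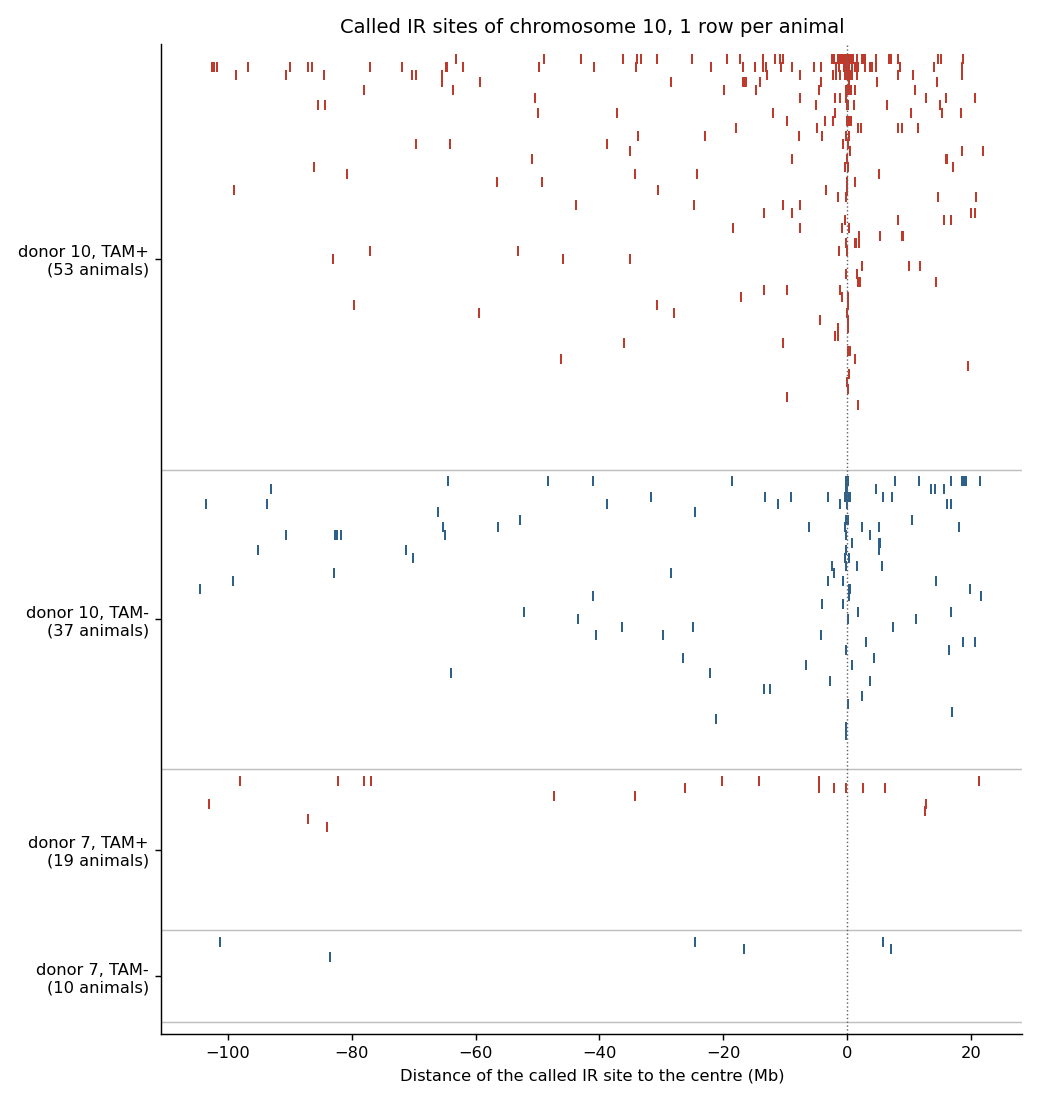
Positions of the 465 called IR sites of chromosome 10 as distance to the centre in Mb, 1 row per animal and 1 tick per site, with donor 10 above donor 7 and TAM+ above TAM- within each. Ticks pile up at the centre in both donor 10 arms, and sites within 0.5 Mb were present in 47 of 90 donor 10 animals and in 1 of 29 donor 7 animals.

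Windows of 1 Mb over the genome were tested with a two-sided Fisher's exact test on animals with and without a site. Of 143 windows hit in at least 3 animals, 4 passed an adjusted p of 0.05 between donors (2.8%), 1 of them among the 47 windows of chromosome 10. It was the centre window, hit in 47 of 90 donor 10 animals (52.2%) and in 1 of 29 donor 7 animals (3.45%, adjusted p = 4.61e-05, Fisher's exact test). The donor 7 animal was the one that stood against its label, and JX sites of the same tumours had picked this window as the centre. The 3 others lay on chromosome 7 and were hit more often in donor 7 animals. Without lane 4, 6 or 7, 2 windows passed in place of 4. The neighbouring windows of chromosome 10 pointed the same way without passing: 15 donor 10 animals had a site between 106000001 and 107000000, 12 between 108000001 and 109000000 and 14 between 109000001 and 110000000, against no donor 7 animal in each. Of the 127 windows of the chromosome that the table covers, 101 held a called donor 10 site and 26 did not. Insertion was thus concentrated at the centre and thinly spread over most of the chromosome.

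The second comparison asked whether tamoxifen went with more, fewer or differently placed chromosome 10 sites in donor 10 animals. TAM+ tumours had 5.55 ± 9.21 called chromosome 10 sites (SD, n = 53) and TAM- tumours 3.84 ± 3.38 (SD, n = 37), with a median of 3 in both and highest values of 51 and 16. The two-sided permutation p was 0.323 (adjusted 0.762), and without the 2 animals with the most sites the means were 3.90 and 3.84. Of the animals with 21 or more chromosome 10 sites, 3 were TAM+ and none was TAM-. The share of called sites on chromosome 10 was 30.01% ± 20.7 in TAM+ and 27.9% ± 14.6 in TAM- tumours (SD, n = 53 and 37, permutation p = 0.599, adjusted 0.762). The share of these sites within 5 Mb of the centre was 50% ± 33.4 in TAM+ and 45.6% ± 33.5 in TAM- tumours (SD, n = 46 and 34, permutation p = 0.566, adjusted 0.762). None of these differences exceeded the spread between animals, and the arms overlapped almost fully.

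By animals, the innermost 0.5 Mb was hit in 30 of 53 TAM+ donor 10 tumours (56.6%) and in 17 of 37 TAM- tumours (45.9%). A site within 5 Mb was present in 39 TAM+ (73.6%) and 28 TAM- animals (75.7%). Of 91 windows of 1 Mb tested between arms in donor 10 animals, 0 passed (0%), and 2 had an unadjusted p under 0.05 in Fisher's exact test. One of these was on chromosome 10, between 97000001 and 98000000, with 6 TAM+ animals and no TAM- animal (unadjusted p = 0.0406, adjusted p = 1, Fisher's exact test). The window holds Gm8633, a predicted gene, whose called sites were in 3 TAM+ animals. Among the 44 chromosome 10 windows tested, 31 had the higher percentage in TAM+, against 33 of 47 windows on other chromosomes.

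Within donor 7 animals the share on chromosome 10 was 6.64% ± 13.3 in TAM+ (SD, n = 19) and 1.94% ± 3.21 in TAM- tumours (SD, n = 10). The tamoxifen difference was 2.09 points with donor 10 and 4.70 points with donor 7, and the difference between these had p = 0.671 in a permutation test that shuffled arms within each donor. Without the TAM+ donor 7 animal that stood against its label, the TAM+ mean was 3.97% ± 6.59 (SD, n = 18) and the donor 7 difference 2.04 points (permutation p = 0.990 for the difference between donors). The direction of the arm difference varied by lane: the TAM+ mean share was the higher in 6 of 9 lanes and the TAM+ mean number of sites in 5 of 9.

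Individual sites differed more in their count share than groups of sites did. The share of an animal's IR counts at a donor 10 site had a median of 0.715%, between 0.0501% and 93.0%. It was over 1% at 200 of the 436 sites and over 10% at 58. In TAM+ tumours the median over 294 sites was 0.395%, and in TAM- tumours over 142 sites it was 1.95%. These medians weigh animals with many small sites more heavily. By distance the medians were 1.26% within 0.5 Mb, 0.368% at 0.5 to 1 Mb, 0.329% at 1 to 2 Mb, 0.705% at 2 to 5 Mb, 0.586% at 5 to 10 Mb, 0.473% at 10 to 20 Mb, 0.953% at 20 to 50 Mb and 0.579% beyond. Without the 2 animals with the most sites they were 2.42%, 1.07%, 0.941%, 2.29%, 0.965%, 1.42%, 3.13% and 1.01%, so that the class of 20 to 50 Mb and not the innermost had the highest median. High shares occurred both next to the centre and far from it.

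The 10 sites with the highest share were named whatever their distance. The highest, 93.0% of the counts of a TAM+ tumour, lay in intron 10 of Lrp1 at 127030270, 19.5 Mb above the centre. It was the only called IR site of that tumour. Lrp1 encodes an endocytic receptor of the low density lipoprotein receptor family, and 904337 left-end and 929100 right-end counts supported this site. Without molecular identifiers, counts are not independent molecules. Next came 2 sites in intron 1 of Ppp1r12a, at 107607535 with 54.2% and at 107606404 with 50.1%, in different TAM+ tumours. Ppp1r12a encodes the targeting subunit that brings myosin phosphatase to myosin. A site ahead of the same gene at 107574917 held 41.0% in a TAM- tumour and one in its intron 5 at 107675364 held 33.4% in another TAM- tumour.

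The rest of these 10 were spread out. Otogl, named for its likeness to otogelin of the inner ear, had a site in intron 8 at 107327841 with 39.1% in a TAM- tumour, and the donor 7 animal described above had its site in intron 17. Anks1b, a synaptic scaffold gene, had a site in intron 3 at 90322128 with 33.1% in a TAM+ tumour. Gm8633 had one in intron 4 at 97807143 with 32.7%, also TAM+. The last, at 112818261 with 31.6% of a TAM- tumour, had no listed gene.

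**Figure D4:**
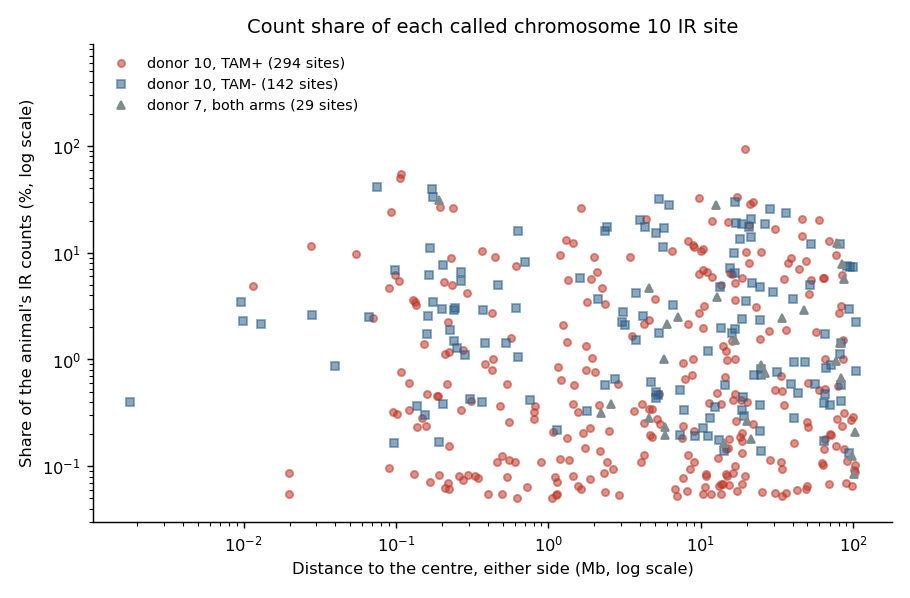
Share of the animal's IR counts (percent, log scale) at each called chromosome 10 site against its distance to the centre on either side (Mb, log scale), for TAM+ and TAM- animals with donor 10 and for donor 7 animals. Sites over 10% occur near the centre and far from it, and the 93.0% site lies at 19.5 Mb. The lowest share was 0.0501% in TAM+ and 0.133% in TAM- donor 10 animals.

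The next question was what kind of place the chromosome 10 sites hit. Of the 465, 209 were listed in introns (45.0%), 13 in exons (2.80%), 70 on the 5′ side of a gene (15.1%), 69 on the 3′ side (14.8%) and 104 with no gene (22.4%). The 13 exonic sites were in 11 genes. Of these sites 3 were in exon 23 of Aldh1l2, which encodes a mitochondrial folate enzyme, all in 1 TAM- animal. Of the 222 sites inside genes, 178 were listed as disrupting the coding sequence (80.2%). Outside genes, the distance in the table is counted from the gene's higher-coordinate end for 100% of positions above a gene and 98.5% of positions below it. For sites below a gene it therefore includes the gene itself, and distances were recomputed to the nearest position listed inside the gene. For the 67 of 70 5′ sites with such a position the median was 43.6 kb and the longest 100.1 kb, where the table lists up to 717.5 kb.

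Set against the other chromosomes of the same donor 10 animals, chromosome 10 sites differed by less than the spread between animals in each measure tested. Introns held 47.2% ± 31.4 of an animal's chromosome 10 sites and 46.3% ± 22.2 of its other sites (SD, n = 79 animals). The chromosome 10 share was higher in 38 animals and lower in 37 (paired permutation p = 0.837). Among sites with a listed gene the insertion ran in the gene's direction for 49.6% ± 32.1 on chromosome 10 and 50.5% ± 23.5 elsewhere (SD, n = 77, paired permutation p = 0.851). The mean log10 of the median count share (in percent) was 0.436 ± 0.621 on chromosome 10 and 0.394 ± 0.645 elsewhere (SD, n = 79, paired permutation p = 0.582). Adjusted p-values of these tests ran between 0.762 and 0.851, and such values do not show that the places are equal.

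Support from other libraries also differed by less than the spread. At least 10 JX counts within 100 bp were found at 94.0% ± 18.5 of an animal's chromosome 10 sites and at 95.1% ± 14.2 of its other sites (SD, n = 79, paired permutation p = 0.580). For PB counts the means were 64.9% ± 32.8 and 64.2% ± 25.2 (SD, n = 79, paired permutation p = 0.847). Both SB ends reached 10 counts at 84.6% ± 23.6 of chromosome 10 sites and 86.6% ± 17.9 of other sites (SD, n = 79, paired permutation p = 0.425). The counts of the ends were nonetheless very uneven: at 331 of the 436 donor 10 sites (75.9%) at least 99% of counts came from 1 end, the left in 176 and the right in 155. Elsewhere in the same animals this held for 946 of 1269 sites (74.5%).

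The arms were also compared by support. In TAM+ tumours 71.0% ± 29.9 of an animal's chromosome 10 sites had PB counts, against 57.8% ± 35.4 in TAM- tumours (SD, n = 46 and 34). The 13.2 points had p = 0.0738 and an adjusted p of 0.344 in the two-sided permutation test, and the TAM+ mean was the higher in 5 of 9 lanes. Without lane 1, 2, 7 or 8 the unadjusted permutation p was 0.0489, 0.0421, 0.0487 and 0.0292. With lane as a block the difference was 5.69 points (permutation p = 0.430). JX support was 91.9% ± 22.4 in TAM+ and 97.0% ± 10.3 in TAM- tumours (SD, n = 46 and 34, permutation p = 0.242, adjusted 0.762). Chromosome 10 held 29.9% ± 18.2 of called PB sites in TAM+ and 27.5% ± 15.9 in TAM- tumours (SD, n = 53 and 37, permutation p = 0.521, adjusted 0.762). In the 3 animals with the most chromosome 10 sites, support was lower than this: 52.9%, 9.09% and 42.9% of their sites had JX counts.

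By gene, 163 symbols were listed for chromosome 10 sites, out of 1056 listed on the chromosome. Of these, 20 were hit in at least 3 animals, 30 in 2 and 113 in 1. Around the centre the fixed list of 19 neighbouring genes had sites in 18, and Osbpl8, which encodes a lipid transfer protein, was the exception. Their 153 sites were in 38 TAM+ animals (52.8% of 72) and 25 TAM- animals (53.2% of 47). The median neighbour was hit in 2 animals and the median gene of the chromosome in 0. The neighbours were picked for their position, with earlier results known, and are not every gene of the region. No conclusion is drawn from this count.

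Otogl and Ppp1r12a led with 27 and 26 animals. Among donor 10 animals Otogl was hit in 15 TAM+ (28.3%) and 11 TAM- tumours (29.7%), and Ppp1r12a in 18 TAM+ (34.0%) and 8 TAM- tumours (21.6%). Otogl sites were 26 in introns, 1 in an exon and 9 ahead of the gene, and Ppp1r12a sites were 17, 1 and 10 with another 10 behind the gene. Nav3, which encodes a neuron navigator protein, was hit in 9 TAM+ (17.0%) and 2 TAM- tumours (5.41%). Pawr, which encodes a pro-apoptotic protein, and Ppfia2, which encodes a liprin of the presynaptic active zone, were each hit in 8 TAM+ (15.1%) and 1 TAM- tumour (2.70%). None of the 1 Mb windows that hold these genes passed between arms. Pawr has 9 sites in all, at shares of up to 4.17%, and Nav3 11 at up to 26.5%.

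Syt1, the calcium sensor gene of synaptic vesicle release, was hit in 6 TAM+ and 4 TAM- tumours, at 13 intronic sites. Of these insertions 12 ran against the direction of the gene and 1 along it. Ptprq, which encodes a receptor phosphatase of hair cells, was hit in 4 TAM+ and 3 TAM- tumours. Lin7a, which encodes a synaptic scaffold protein, was hit in 4 TAM+ and 2 TAM- tumours at 7 sites, all outside the gene. Without the 2 animals with the most sites the counts were 25 animals for Otogl, 24 for Ppp1r12a, 9 for Nav3, 8 for Syt1, 7 for Pawr and for Ppfia2, and 5 for Ptprq and for Lin7a.

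The other libraries also had called sites in these genes. Called JX sites were in Otogl in 34 animals (18 TAM+ and 16 TAM-), Ppp1r12a in 26 (14 and 12), Nav3 in 18 (11 and 7), Syt1 in 13 (8 and 5), Ppfia2 in 12 (9 and 3) and Pawr in 8 (5 and 3). Called PB sites were in Ppp1r12a in 29 animals (22 TAM+ and 7 TAM-), Otogl in 25 (13 and 12), Syt1 in 16 (11 and 5), Nav3 in 13 (11 and 2) and Ppfia2 in 8, all TAM+. Of the Ppp1r12a IR sites 26 of 38 had PB counts within 100 bp, against 16 of 36 for Otogl.

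**Figure D5:**
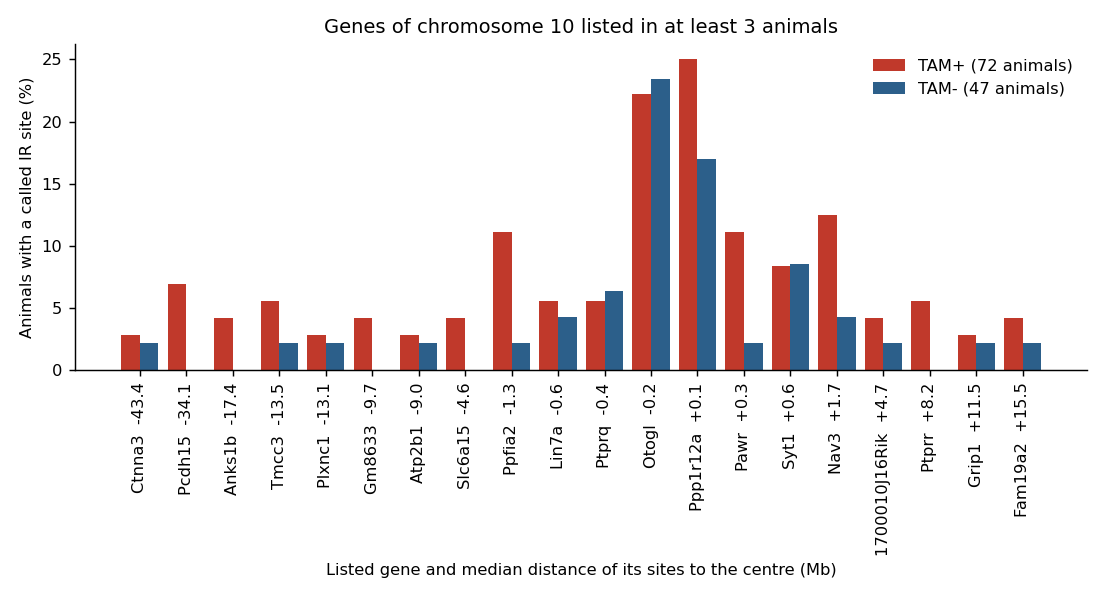
Percent of animals with a called IR site for the 20 genes of chromosome 10 hit in at least 3 animals, TAM+ (red, left bar) and TAM- (blue, right bar), ordered by the median distance of their sites to the centre, which is printed after each name in Mb. Otogl and Ppp1r12a, next to the centre, were hit in 22.2% and 25% of TAM+ animals and 23.4% and 17.0% of TAM- animals.

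Other members of the list of neighbours were hit less often. Slc6a15, an amino acid transporter gene, was hit in 3 animals, 2 of them with donor 7, and Acss3, an acyl-CoA synthetase gene, Tmtc2, which encodes an endoplasmic reticulum protein, Trhde, which encodes the enzyme that degrades thyrotropin-releasing hormone, and Zdhhc17, a palmitoyltransferase gene, were hit in 2 each. E2f7, which encodes an atypical E2F repressor, Csrp2, a LIM domain gene, and the myogenic factor genes Myf5 and Myf6 were hit in 1 each, all within the 2 animals with the most sites. Of the 2 potassium channel genes of the chromosome, Kcnc2 (a Kv3 channel) was hit in 1 TAM- tumour, in an intron 4.27 Mb above the centre with 17.5% of the counts, and Kcnmb4, which encodes a BK channel subunit, had no called site.

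Of 20 growth, SHH pathway and cancer genes of chromosome 10, 3 had a called site (15%), in 3 TAM+ animals, against 15.4% of all 1056 genes of the chromosome. They were Igf1, an insulin-like growth factor (0.268% of counts, a donor 7 animal), Kitl, the ligand of Kit (0.651%), and Ptprk, a receptor phosphatase (0.562%). Gli1, Cdk4, Mdm2, Myb and the 13 others of that list had none. Of 8 long or synaptic genes 6 were hit (75%), in 10 TAM+ (13.9%) and 2 TAM- animals (4.26%). Without the 2 animals with the most sites 5 were hit, in 8 TAM+ and 2 TAM- animals, and gene length, which sets the target size, was not taken into account. Pcdh15, which encodes a cadherin of hair cell tip links, was hit in 5 TAM+ animals, Ptprr, a receptor phosphatase gene, in 4 TAM+, Anks1b in 3 TAM+, and Ctnna3, an alpha-catenin gene, in 2 TAM+ and 1 TAM-. Utrn, the utrophin gene, was hit in 1 TAM- animal.

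The remaining genes hit in at least 3 animals had median distances between 4.67 and 15.5 Mb on either side of the centre. Tmcc3, which encodes a coiled-coil protein of the endoplasmic reticulum, was hit in 4 TAM+ and 1 TAM- animals, and 1700010J16Rik and Fam19a2 (now Tafa2, a secreted chemokine-like protein) each in 3 TAM+ and 1 TAM-. Atp2b1, a plasma membrane calcium pump gene, Grip1, a glutamate receptor scaffold gene, and Plxnc1, a semaphorin receptor gene, were each hit in 2 TAM+ and 1 TAM- animals. All insertions of 1700010J16Rik (4) and Grip1 (3) ran along the gene and all of Ctnna3 (3) against it. Of the 20 genes hit in at least 3 animals, 15 were so without the 2 animals with the most sites. Tmcc3 and Pcdh15 were then hit in 3 animals each, and 1700010J16Rik, Anks1b, Atp2b1, Ctnna3 and Plxnc1 in 2 each.

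Of the 465 positions, 21 were also called in another animal, 18 of them in an animal that shared a lane. The animal credited held between 0.281% and 54.2% of its counts there and the other animals between 0.0649% and 0.460%. With every call kept instead there were 487 chromosome 10 calls, and the donor difference stayed on its side of the threshold.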

How the data were processed

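Insertion counts per position, animal and library end were deposited by the authors as 1 table for all lanes, with a sample sheet that names arm, donor chromosome and lane. Per the labels' protocols, sheared tumour DNA was ligated to splinkerette adaptors and amplified for IR, JX and PB libraries. The submitters' processing notes name the genome build mm9. The sources used here do not name the aligner or the counting steps. Gene parts and orientations are the authors' listings.

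Sites were called as described in the report, with python 3.11.15, numpy 2.4.6, pandas 2.3.3 and scipy 1.17.1. IDs spelled with and without leading zeros were joined as 1 animal. Means over animals were compared by two-sided permutation tests with 100000 resamples (sign flips where paired), adjusted by Benjamini-Hochberg over 14 tests, and windows by Fisher's exact test. The scripts were tested on simulated data. Named genes were those hit in at least 3 animals, members of the gene lists with a site, and the genes of the 10 sites with the highest share; other genes named were chosen after their values were seen. The members, gene lists and tests were chosen with earlier results of these data known. Of 163 symbols, 150 were current and 12 matched 1 synonym in RefSeq's GRCm38.p6 table. Alternatives covered the call limit, merging, library ends, shared positions, lane as a block, centre, distances, window size and lanes. One listed gene is not reported here by name. Animals without a usable arm and control libraries entered no comparison.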

Additional observations from a re-analysis of the deposited data

Results flagged for a closer look

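In the 10 donor 7 animals without tamoxifen, 1 stood apart with 5 called chromosome 10 sites among 91 called sites, and the others had between 0 and 2. In the 10 donor 7 animals with a chromosome 10 site, 1 stood apart with 66.7% of those sites within 5 Mb of the centre. It is the animal with no called chromosome 7 site. A distance rule of this kind is set to pick out about 1 in 20 groups by chance. Most values in both groups were 0, and the rate for such values was not tested.

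Outside the comparisons, 8 tumours had no usable arm. Of these, 1 had more sites within 5 Mb of the centre than any of the 5 control tumours. The 8 tumours together had 30 chromosome 10 sites among 533, with 6 within 5 Mb in 2 animals, and the control tumours had 31 among 631, with 1 within 5 Mb. In both groups 1 tumour held most of the sites. It had 20 chromosome 10 sites among 428 in the first group, with 0 within 5 Mb, and 29 among 555 in the control tumours. The sheet gives the control tumours donor 7 or no donor, and the 8 tumours no donor. Control DNA of 7 animals had 10 among 247, with 1 within 5 Mb. The part of sample handling in these values was not tested.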

How the results depend on the processing

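The donor difference in the chromosome 10 share ranged between 19.3 and 25.9 points over 22 alternatives, all with a permutation p of 1e-05, and that in the share within 5 Mb between 25.6 and 46.8 points over 27. The small differences below changed sign or size, and the cause was not tested. Differences are chromosome 10 minus other chromosomes, or TAM+ minus TAM-, in percentage points unless said otherwise.

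At a call limit of 0.1% the 465 sites became 5494. JX support was then 2.31, PB support -0.769, support at both ends -5.12 (paired permutation p = 0.00432), PB support between arms -4.53 and the PB site share between arms 4.95 (permutation p = 0.0175). At 5% there were 225 sites, with -0.0954 sites per animal between arms, -3.89 for the share within 5 Mb between arms, -1.67 for introns, 0.577 for JX support, -3.99 for PB support, 0.239 for both ends and 19.2 for PB support between arms (permutation p = 0.0211). With merging within 100 bp, orientation was 1.33, JX support 0.190, PB support -0.0124 and both ends 0.302. With the left end alone the log10 share was -0.0253 and JX support 0.372. With the right end alone the share between arms was -0.583, the share within 5 Mb between arms -7.18, JX support 1.08, PB support -0.0899, and 1 window passed between donors. With every call kept, introns were -5.25, PB support -3.89 and both ends -4.36 (paired permutation p = 0.0402). Leaving out shared positions gave -0.0749 for the share between arms, sites within 5 Mb alone gave -2.28 for PB support, at least 3 sites in each class gave -0.152 for introns and 0.928 for JX support, matching within 1000 bp gave 0.0625 for JX support, and windows hit in at least 2 animals gave 2 passing between donors.

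Leaving out each lane in turn gave -1.62 to 3.51 for introns, -2.61 to 0.622 for orientation, -1.51 to 3.77 for PB support and 10.4 to 16.6 for PB support between arms, whose permutation p was under 0.05 without lanes 1, 2, 7 and 8. Between 2 and 4 windows passed between donors, 2 of them without lanes 4, 6 and 7. With lane as a block, an alternative chosen after seeing the data, none of the 8 differences between arms or donors changed sign or side of 0.05. Arms and donors could not be compared in pairs because no animal is in both arms or both donors, and the labels number lanes, not replicates. The animal with the fewest counts had 295999 IR counts and 334 called IR sites, the most of any animal. Of its 44 chromosome 10 sites, 9.09% had JX counts, and the part of depth in these values was not tested.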

Other observations

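One distance class stood apart between arms, and it was chosen after its values were seen. Between 1 and 2 Mb from the centre, 20 of 53 TAM+ donor 10 animals (37.7%) and 3 of 37 TAM- animals (8.11%) had a called IR site (Fisher's exact p = 0.00141, adjusted over the 8 distance classes 0.0113). Without the 2 animals with the most sites the counts were 18 of 51 and 3 of 37 (adjusted Fisher's exact p = 0.0366). The sites were in Nav3 (9 TAM+ and 2 TAM- sites), Ppfia2 (10 and 1), Acss3 (3 and 0) or had no listed gene (12 and 0). The other libraries differed among themselves: called PB sites were there in 19 TAM+ and 4 TAM- animals (Fisher's exact p = 0.00766), and called JX sites in 21 and 10 (Fisher's exact p = 0.263).

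The result moved with the call. With the left SB end alone there were 19 TAM+ and 0 TAM- animals (Fisher's exact p = 9.88e-06), and with the right end alone 16 and 5 (Fisher's exact p = 0.0797). At a call limit of 0.1% there were 35 and 21 (Fisher's exact p = 0.387), and at 5% there were 10 and 1 (Fisher's exact p = 0.0238). Leaving out each lane gave Fisher's exact p between 0.000596 and 0.0169. None of these values is adjusted for the choice of class after the fact.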
